A study of Mus musculus with 12 samples.

Results

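miR-221 and miR-222 are a pair of miRNAs processed from neighboring hairpins on the mouse X chromosome. The array carried entries for 696 mouse miRNAs, and the members are the 2 entries whose systematic name is mmu-miR-221 or mmu-miR-222. They were matched by name, and both passed the filter on low values, which kept 334 miRNAs detected on at least 1 array. The cells came from the bone marrow of male C57BL/6 mice aged 6 to 8 weeks and were depleted of B220/CD45R+ and CD3+ lymphocytes. All cultures received M-CSF (30 ng/ml), a growth and survival factor of the monocyte lineage, together with RANKL (30 ng/ml), the cytokine that drives osteoclast differentiation, so there was no culture without RANKL. RNA was taken from 4 cultures at each of days 1, 3, and 5, with 1 culture per single-color array. Days 1 and 5 were hybridized together on slide 1, whereas day 3 was on slide 2, so that day 3 and slide 2 cannot be told apart.

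A miRNA guides the silencing complex to mRNAs that pair with its seed, bases 2 to 8 from its 5′ end, and lowers their stability or translation. miR-221 and miR-222 carry the same seed. In other cells they are known to repress p27 (Cdkn1b), an inhibitor of cyclin-dependent kinases that holds cells out of the cell cycle, and Kit, the receptor for stem cell factor on hematopoietic progenitors. In blood formation they are known for their decline in cultures of erythroid progenitors, which relieves the repression of Kit.

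In these cultures miR-221 was 1.33-fold higher at day 5 than at day 1 after normalization (log2 difference 0.41, SE 0.08, n = 4 per day), whereas no difference between days passed the test for miR-222. Measured within each array, which needs no scaling between arrays, miR-222 fell relative to miR-221 to 74.3% of its day 1 ratio at day 5 before normalization and 77.5% after it. How often other pairs of miRNAs diverged by as much was not tested. The rise of miR-221 kept its direction under each scaling tried, and its call was lost under 2 of them.

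The mature sequences are shown because the seed is what both miRNAs share, while the bases beyond it are what the array tells apart. They are RefSeq sequences of GRCm38.p6, read 5′ to 3′, with the seed in capitals.

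mmu-miR-221-3p: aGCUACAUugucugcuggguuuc

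mmu-miR-222-3p: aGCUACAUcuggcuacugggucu

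mmu-miR-1928: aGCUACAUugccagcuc

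The first 8 bases of miR-221 and miR-222 were identical, and 11 positions in all were identical without gaps. Among 1738 mature mouse sequences in the table, 3 held this seed. The third, miR-1928 from chromosome 1, was also on the array and was detected on 0 of 12 arrays. The mature miR-221 lies at chrX:19146307-19146329 and the mature miR-222 at chrX:19146901-19146923, both on the minus strand of GRCm38.p6. Their hairpins, Mir221 and Mir222, are separated by 504 bases. No other gene in the annotation table overlapped either hairpin. The nearest genes on either side of the pair were the pseudogene Gm5383 and the long noncoding RNA Gm14636.

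Each miRNA was read by 2 DNA probes that pair with part of it, shown here because they set how far the array separates the pair. They are written 5′ to 3′ and in lower case throughout.

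mmu-miR-221 probe 1: gaaacccagcagacaatgt

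mmu-miR-221 probe 2: gaaacccagcagacaatgta

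mmu-miR-222 probe 1: acccagtagccag

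mmu-miR-222 probe 2: acccagtagccaga

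The miR-221 probes pair with bases 5 to 23 and 4 to 23 of miR-221, and so with 4 and 5 bases of the seed. The miR-222 probes pair with bases 9 to 21 and 8 to 21 of miR-222, and so with 0 and 1 bases of the seed. Matches to the other miRNA were counted without gaps and with the whole probe placed inside it. In the best such placement, 7 bases of miR-221 probe 1 and 8 bases of probe 2 matched miR-222. The bases were counted over all positions and not as a continuous run. Placements in which a probe extends past the end of the miRNA were not counted and can match more bases. For each miR-222 probe, 10 bases matched miR-221 when counted in the same way. Hybridization of one miRNA to the probes of the other was not tested. The levels of both miRNAs are not compared with each other, because different probes bind with different strength.

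Both miRNAs were detected on 12 of 12 arrays. All 240 spots of each, 20 per array, were well above background and 0 were saturated. The spot signal was 130 to 225 times the local background for miR-221 and 43.3 to 66.2 times for miR-222, taken as the median per array. Spots of the same probe on 1 array had coefficients of variation of 3.59% to 6.09% for miR-221 and 2.27% to 6.95% for miR-222. The number of arrays, 4 per day, limits the precision. Between 186 (day 5 replicate 4) and 276 miRNAs were detected per array, and the summed miRNA signal averaged 58.6% of the day 1 value at day 3 and 80.7% at day 5. The differences in total signal enter each member's own signal before normalization.

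Before normalization, the total signal of miR-221, a linear intensity summed over its probes, was 19852, 17414, 20780, and 16015 on the 4 arrays of day 1. It was 15872, 13776, 14694, and 15200 at day 3, and 24501, 21064, 22098, and 21662 at day 5. The days did not overlap, with all day 3 arrays below and all day 5 arrays above those of day 1. The share of all miRNAs whose days did not overlap was not counted, here or in the comparisons below. Over all tested miRNAs the median log2 difference before normalization was -0.77 from day 1 to day 3 and -0.50 from day 1 to day 5. Mean intensities were 18515 ± 2190 at day 1, 14885 ± 883 at day 3, and 22331 ± 1507 at day 5 (SD, n = 4).

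For miR-222 the total signals were 6913, 5647, 6292, and 6073 at day 1. They were 4892, 4163, 4422, and 4622 at day 3, and 6299, 5494, 5993, and 4712 at day 5. The day 3 arrays lay below all day 1 arrays, and the day 5 arrays overlapped both other days. Mean intensities were 6231 ± 528, 4525 ± 309, and 5624 ± 693 at days 1, 3, and 5 (SD, n = 4). At day 5 the mean signal was therefore 121% of that of day 1 for miR-221 and 90.3% for miR-222.

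**Figure D1:**
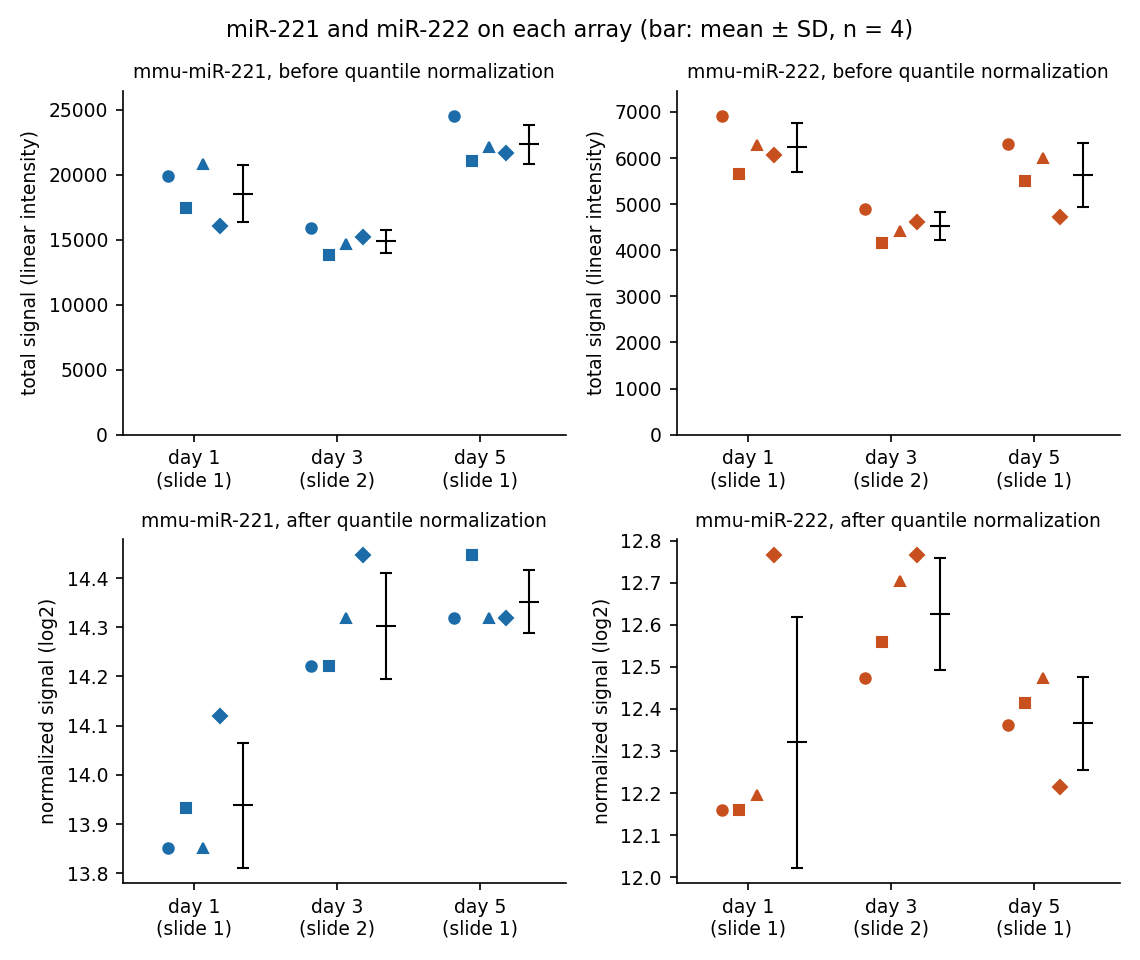
Signal of miR-221 (left) and miR-222 (right) on each of the 12 arrays, as the linear total signal before normalization (top) and as the quantile normalized log2 signal (bottom). Symbols mark replicates 1 to 4, and bars give the mean ± SD of 4 arrays. The labels do not say whether equal numbers belong together across days, and they were not treated as paired. After normalization the day 1 arrays of miR-221 lie below all others, while for miR-222 the day 1 replicate 4 stands apart at 12.77 and the days overlap.

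Quantile normalization gives all arrays the same distribution of values, so that a change is relative to the other miRNAs. On this log2 scale miR-221 measured 13.85, 13.93, 13.85, and 14.12 at day 1. It measured 14.22, 14.22, 14.32, and 14.45 at day 3, and 14.32, 14.45, 14.32, and 14.32 at day 5. Each day 3 and day 5 array lay above each day 1 array, and days 3 and 5 overlapped. Repeated values arise because arrays on which a miRNA has the same rank receive the same normalized value.

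miR-221 was higher at day 5 than at day 1 by 0.41 on the log2 scale (SE 0.08, 95% interval 0.23 to 0.60, 1.33-fold, adjusted p = 0.00123 by limma with Benjamini-Hochberg adjustment). It was higher at day 3 than at day 1 by 0.36 (SE 0.08, 95% interval 0.18 to 0.55, 1.29-fold, adjusted p = 0.00343 by limma). Both differences passed the threshold of 0.01, and in both an exact two-sided permutation of the 4 and 4 arrays gave p = 0.0286, the smallest it can give. Between days 3 and 5 the difference was 0.05 (SE 0.08, 95% interval -0.14 to 0.24, adjusted p = 0.740 by limma), which did not pass. Means were 13.94 ± 0.13, 14.30 ± 0.11, and 14.35 ± 0.06 at days 1, 3, and 5 (SD, n = 4).

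Changes of this kind were common in these cultures. Between days 1 and 3, 52.4% of the tested miRNAs passed the threshold, and 27.2% passed it with the higher level at day 3. For days 1 and 5 the shares were 60.8% in all and 31.7% higher at day 5. For days 3 and 5 they were 25.4% and 14.7%. In the F test over the 3 days 62.9% passed, among them miR-221 (adjusted p = 0.00221 by limma), while miR-222 did not (adjusted p = 0.143 by limma). The rise of miR-221 was small beside those of the others, since 82.0% of the tested miRNAs differed more between days 1 and 5 in absolute size, and 74.1% did among the 148 miRNAs detected on all arrays.

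The day 3 call of miR-221 was near its threshold. The adjusted p by limma was 0.0105 to 0.0107 without day 1 replicate 3, without day 3 replicate 3, or without day 3 replicate 4, with differences of 0.32 to 0.36. The comparison of days 1 and 5 lies within slide 1, and fitted on the arrays of these days alone it gave 0.41 with an adjusted p of 0.00553 by limma.

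miR-222 measured 12.16, 12.16, 12.20, and 12.77 on the normalized log2 scale at day 1. It measured 12.47, 12.56, 12.70, and 12.77 at day 3, and 12.36, 12.41, 12.47, and 12.22 at day 5. One array, day 1 replicate 4, lay as high as the highest day 3 array, and without it the day 1 arrays lay below all others. Means were 12.32 ± 0.30, 12.63 ± 0.13, and 12.37 ± 0.11 at days 1, 3, and 5 (SD, n = 4).

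No difference between days passed the threshold for miR-222. Day 5 exceeded day 1 by 0.05 (SE 0.14, 95% interval -0.27 to 0.36, adjusted p = 0.785 by limma, exact permutation p = 0.886). Day 3 exceeded day 1 by 0.31 (SE 0.14, 95% interval -0.01 to 0.62, adjusted p = 0.0823 by limma, exact permutation p = 0.143). Day 5 was below day 3 by a log2 difference of -0.26 (95% interval -0.58 to 0.06, adjusted p = 0.211 by limma, exact permutation p = 0.0571). The intervals include changes in either direction. Without day 1 replicate 4, day 3 exceeded day 1 by 0.46 and passed (adjusted p = 0.00203 by limma). In spread at day 1, miR-222 had a larger SD than 79.6% of the miRNAs detected on all arrays, against 31.3% for miR-221.

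**Figure D2:**
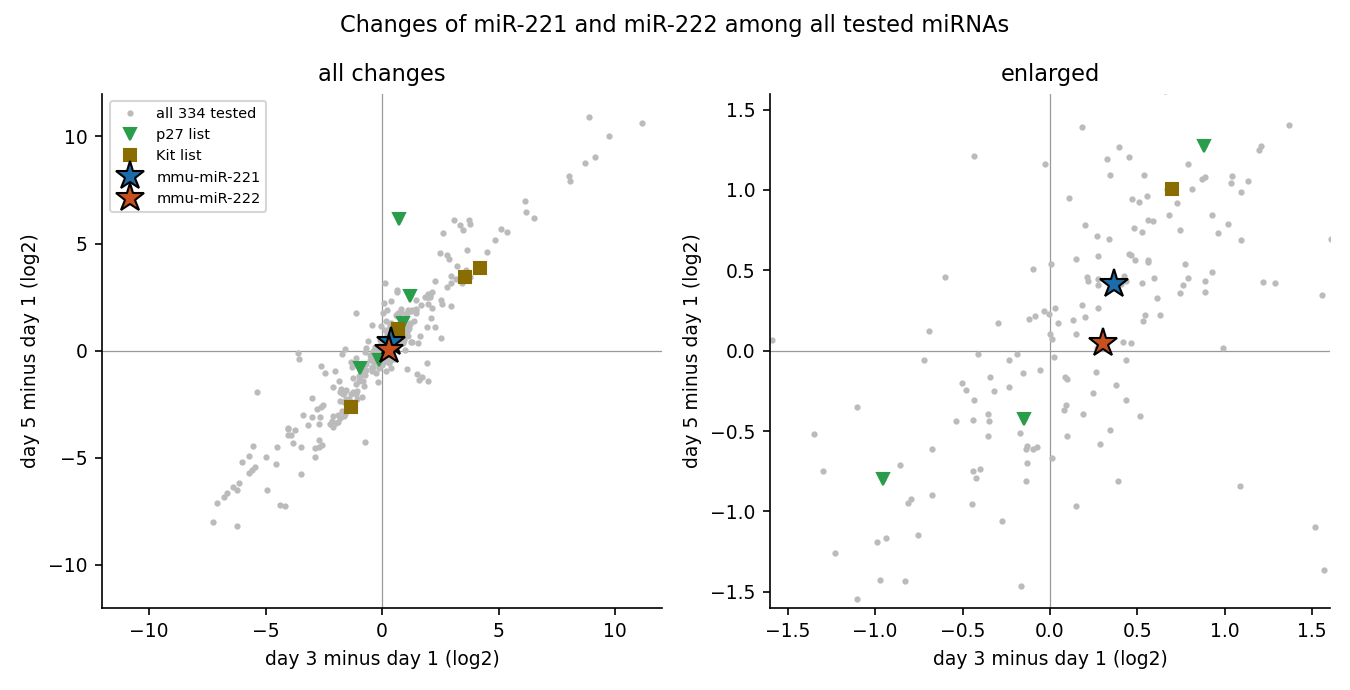
Log2 difference from day 1 to day 3 (horizontal) and from day 1 to day 5 (vertical) of the 334 tested miRNAs after quantile normalization, shown in full and enlarged around 0, with miR-221 and miR-222 as stars and the tested miRNAs of the p27 and Kit lists as triangles and squares. Both axes share the day 1 arrays. miR-221 lies at 0.36 and 0.41 and miR-222 at 0.31 and 0.05, both near the middle of all miRNAs.

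Whether the pair moved by equal amounts was asked within each array, as the log2 of miR-222 minus that of miR-221. Its level depends on the probes and has no meaning as a ratio of molecules, and only its change between days is read. Before normalization, the miR-222 signal was 34.8%, 32.4%, 30.3%, and 37.9% of the miR-221 signal on the 4 arrays of day 1. It was 30.8%, 30.2%, 30.1%, and 30.4% at day 3, and 25.7%, 26.1%, 27.1%, and 21.8% at day 5. The day 5 arrays lay below all arrays of days 1 and 3, which overlapped.

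By day 5, miR-222 had fallen relative to miR-221 since day 1, with a log2 change of the within-array difference of -0.43 without normalization (SE 0.10), to 74.3% of the day 1 ratio. After quantile normalization it was -0.37 (SE 0.11), to 77.5%. Relative to day 3 the change at day 5 was -0.28 without normalization, to 82.5%, and -0.31 after it (SE 0.06), to 80.7%. In all these comparisons the arrays did not overlap, with exact two-sided permutation p = 0.0286 and p = 0.0429 after Benjamini-Hochberg adjustment over the 3 pairs of days, past the threshold of 0.05. Between days 1 and 3 the normalized difference changed by -0.06 (SE 0.10, exact permutation p = 0.800), and without normalization by -0.15 (exact permutation p = 0.0857). The change from day 1 to day 5 came from arrays of 1 slide. With 1 array left out at a time it lay between -0.42 and -0.29, the smallest size being without day 1 replicate 4, and without day 5 replicate 4 it was -0.30. How often other pairs of miRNAs diverged by this much was not tested. Between days 1 and 5, 82.0% of the tested miRNAs changed more than miR-221 did, so the divergence is not shown to be particular to this pair.

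**Figure D3:**
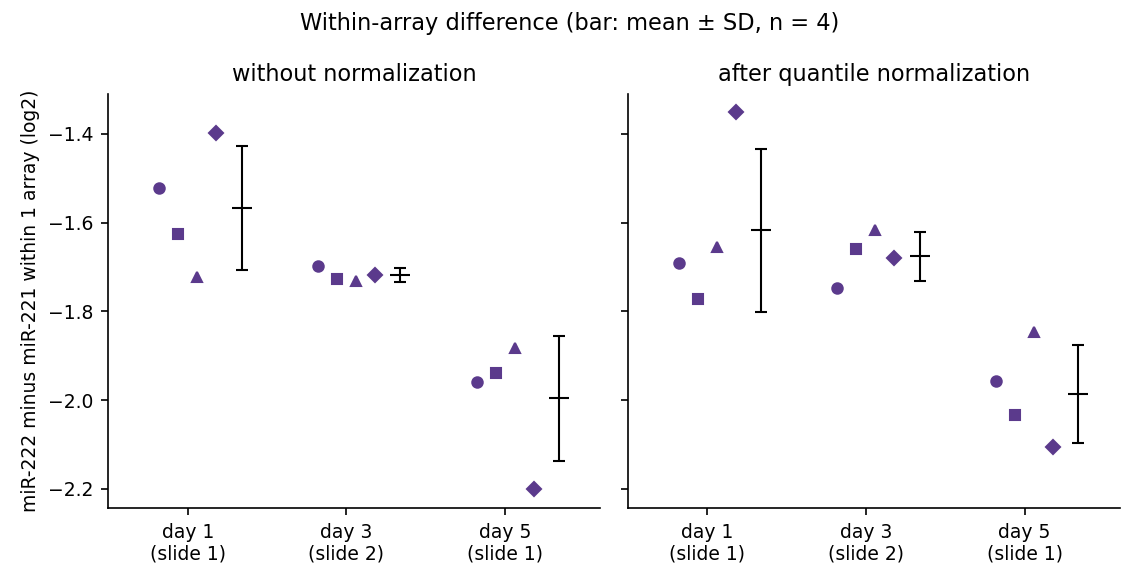
Log2 signal of miR-222 minus that of miR-221 on each array, before (left) and after (right) quantile normalization. Symbols mark replicates 1 to 4 and bars give the mean ± SD of 4 arrays. The day 5 arrays lie between -2.20 and -1.88 before normalization and between -2.10 and -1.85 after it, below all arrays of days 1 and 3.

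The relative fall did not rest on 1 probe. With each of the 4 combinations of 1 probe of miR-222 and 1 probe of miR-221, the unnormalized change from day 1 to day 5 was -0.48, -0.43, -0.45, or -0.39, and from day 3 to day 5 it was between -0.31 and -0.25. Each gave an exact permutation p of 0.0286. Between both probes of the same miRNA the changes were smaller. Probe 2 minus probe 1 changed by -0.05 from day 1 to day 5 for miR-221 (exact permutation p = 0.257) and by 0.03 for miR-222 (exact permutation p = 0.543). The pair of probes of miR-222 differs by 1 base and the pair of miR-221 likewise, so probes of 1 miRNA are not independent measurements.

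The size of each member's own change depended on the scaling between arrays. Over all 334 miRNAs the median log2 difference from day 1 to day 5 was 0.11 after the main normalization and -0.50 without any. The rise of miR-221 was 0.30 above the median in the first and 0.77 above it in the second, and it exceeded the median by 0.77 under each of the scalings by percentile or median. Its own difference was 0.41, 0.27 when arrays were scaled to the 75th percentile of miRNAs detected on all arrays (adjusted p = 0.0278 by limma), and 0.28 without normalization (adjusted p = 0.0659 by limma), so that under both the call was lost. At day 3, relative to day 1, miR-221 changed by 0.36 with normalization but by -0.31 without it, where the median of all miRNAs was -0.77.

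For miR-222 the difference from day 1 to day 5 was 0.05 after the main normalization, -0.16 with the scaling to that percentile, and -0.15 without normalization, and none of these passed the threshold. At day 3 it was -0.46 relative to day 1 without normalization and passed (adjusted p = 0.0089 by limma), in the opposite direction to the normalized 0.31. The share of called miRNAs that were higher at day 5 than at day 1 also moved, from 52.2% to 38.7% without normalization and 38.9% with the percentile scaling. Of the calls between days 1 and 3, the share higher at day 3 was 52.0%, and 19.0% without normalization. Of those between days 3 and 5, the share higher at day 5 was 57.6%, with 33.8% under the percentile scaling and 94.2% without normalization. With the deposited normalized values that last share was 42.3%. In RNA from whole cultures, fewer cells of a type and less RNA per cell cannot be told apart.

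**Figure D4:**
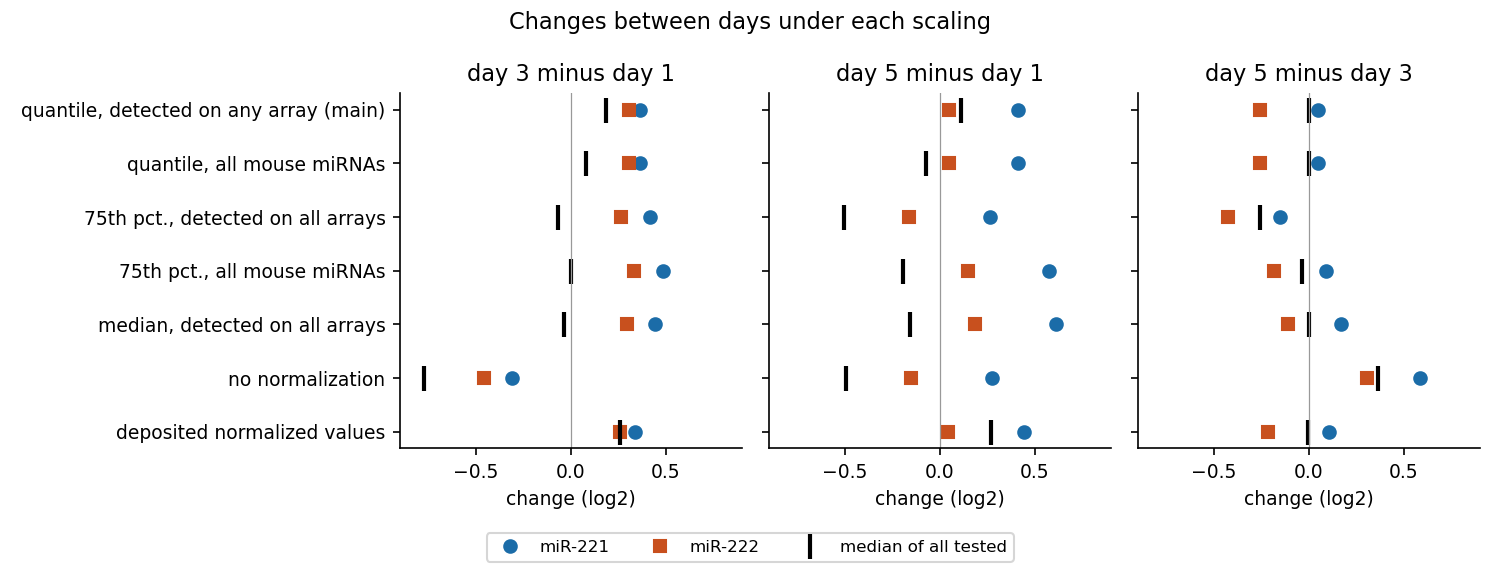
Log2 differences between days for miR-221 (circles), miR-222 (squares), and the median of all tested miRNAs (bars) under 7 scalings between arrays. miR-221 lies to the right of miR-222 in each panel and under each scaling, and from day 1 to day 5 miR-221 lies above 0 under each. The gap between both is the same by construction without normalization and with scaling by percentile or median. In the other panels, and for miR-222 in all 3, the side of 0 changes with the scaling.

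Other miRNAs that are known to target p27 or Kit in other cells were taken as lists. The lists are short, were chosen with earlier results of these data known, and were not tested as sets. Of 6 miRNAs of the p27 list, 5 were detected on at least 1 array, and all 5 passed the threshold from day 1 to day 5, as did 60.8% of all miRNAs tested, with 3 higher and 2 lower at day 5. Their median log2 difference was 1.27, against 0.11 over all miRNAs tested. miR-196a, among the 3 higher, entered the test only through its detection on 2 arrays of day 5. Neither the count nor the median is therefore read as a result about the list. miR-24, which is also known as a regulator of the cell cycle, rose by 1.27 (adjusted p = 4.22e-08 by limma). miR-152 rose by 2.57 (adjusted p = 4.19e-07) and had been detected on 2 of 4 arrays at day 1. miR-196a was not detected at day 1 and was detected on 2 arrays of day 5, and it passed with a higher level at day 5 (adjusted p = 1.24e-05 by limma). No fold is given for it, because its day 1 values lay at the floor. With scaling by percentile or median, or without normalization, the log2 difference of miR-196a was 1.86 to 2.18 and did not pass. miR-148a, which shares its seed region with miR-152, fell by 0.43 (adjusted p = 0.000177 by limma), and miR-181a, known for its part in lymphoid development, fell by 0.80 (adjusted p = 0.000641 by limma). miR-196b was detected on 0 arrays. At day 3, 3 of the 5 differed from day 1 (2 higher, 1 lower), as did 52.4% of all miRNAs tested. Between days 3 and 5, 4 passed (3 higher, among them miR-196a, and 1 lower), against 25.4% of all miRNAs tested. With scaling by percentile or median 1 or 2 passed, and without day 5 replicate 4 it was 2.

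Of 5 miRNAs of the Kit list, 4 were tested, and all 4 passed from day 1 to day 5, as did 60.8% of all miRNAs tested, with 3 higher and 1 lower. Their median log2 difference was 2.22, against 0.11 over all miRNAs. This median depends on miR-193 and miR-193b, which were detected on 1 and 0 arrays at day 1. miR-193b entered the test only through its detection at days 3 and 5. Neither the median nor the count is therefore read as a result about the list. miR-193 rose by 3.43 (adjusted p = 4.44e-05 by limma) from detection on 1 of 4 arrays at day 1. Its paralog miR-193b was detected on no array at day 1 and on all 4 at day 5, and its log2 difference was 3.85 (adjusted p = 0.00767 by limma). This difference depended on the processing. It was 2.01 without normalization (adjusted p = 0.0177 by limma) and 0.74 with normexp background correction, where it passed. It also missed the threshold with scaling to the 75th percentile of miRNAs detected on all arrays (0.0172), without a filter on dim miRNAs (0.0139), with a floor of 0.1 (0.0291), and with days 1 and 5 fitted alone (0.0283). miR-34a, known as a target gene of p53, rose by 1.00 (adjusted p = 2.52e-05 by limma). miR-494 fell by 2.62 (adjusted p = 2.76e-08 by limma). miR-137 was detected on 0 arrays. All 4 also passed between days 1 and 3, with 3 higher and 1 lower at day 3, though 2 did without normalization. Of all miRNAs tested, 52.4% passed between these days. Between days 3 and 5 only miR-494 passed, lower at day 5, against 25.4% of all miRNAs tested. The members of both lists that were detected on all 12 arrays thus changed from day 1 to day 5 by between -2.62 and 1.27, while miR-221 differed by 0.41 and miR-222 by 0.05. The levels of p27 and Kit were not measured on these arrays.

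The array's annotation places at least 1 probe of 92 other miRNAs on the X chromosome, and 38 of these miRNAs were tested. Whether they also arise from other chromosomes was not tested, so they are not all shown to be transcribed from the X chromosome. Between days 1 and 5, 28 (73.7%, against 60.8% of all miRNAs tested) passed the threshold, 15 higher and 13 lower, with a median difference of 0.31 against 0.11 over all miRNAs. Between days 1 and 3, 20 passed (52.6% against 52.4% of all, with 10 higher and 10 lower), and between days 3 and 5, 15 passed (39.5% against 25.4% of all, with 9 higher and 6 lower). Whether the miRNAs of this list come from separate loci was not tested, so these are not counts of loci. Examples that were higher at day 5 are miR-362-5p with 1.73, miR-500 with 1.20, and miR-532-5p with 1.19. Examples that were lower are miR-20b with -0.61 (a member of the miR-17 family, which did not pass with scaling to the 75th percentile of all mouse miRNAs or to the median) and miR-680 with -3.06. Scaling to the 75th percentile of all mouse miRNAs reduced the 28 calls to 18, the 20 to 10, and the 15 to 7, each of 38 tested. Over all 334 miRNAs tested, this scaling gave 169, 122, and 40 calls for the same comparisons. The larger share on the X chromosome list between days 1 and 5 thus depended on the scaling.

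The miRNAs closest to each member in pattern were sought among the 147 others detected on all 12 arrays, each centered on its own mean, by the root mean square difference over the 12 arrays. For miR-221 the closest were miR-140* (0.12), miR-19b of the miR-17-92 cluster family (0.12), miR-23a (0.12, with 71 saturated spots), miR-1937b_v16.0 (0.13, with 169 saturated spots), and miR-361 (0.14). miR-222 was 15th, at 0.20. Between days 1 and 5 miR-19b rose by 0.46 (adjusted p = 5.18e-05 by limma) and miR-361 by 0.59 (adjusted p = 9.61e-05 by limma), while miR-140* differed by 0.28 (adjusted p = 0.0144 by limma). Without normalization these differences were 0.24, 0.12, and -0.03, and none passed. For miR-222 the closest were miR-423-5p (0.13), miR-2146_v15.0 (0.14), miR-1839-3p (0.15), and miR-1944_v16.0 (0.18), followed by miR-221 (0.20). None of the first 4 passed between days 1 and 5, with log2 differences of -0.16 to 0.05. The measure favors miRNAs of small change, and closeness is a description of these arrays.

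Markers of other cells moved over the same days. The myeloid markers miR-223, miR-142-3p, and miR-142-5p were detected on all arrays and summed to 5.75% to 6.92% of all miRNA signal at day 1, 5.27% to 6.08% at day 3, and 5.94% to 6.61% at day 5. Of these 3, miR-223 passed from day 1 to day 5, with a normalized log2 difference of -0.43, and its spots were saturated on all day 1 arrays, so that its day 1 signal is a lower limit. With scaling to the 75th percentile of all miRNAs (-0.21) or the median (-0.18) miR-223 did not pass. The list of erythroid, lymphoid, endothelial, megakaryocytic, and stromal markers held 12 names, of which 10 matched an entry of the array. Their summed signal was 2.07% to 3.01% of the total at day 1, 0.129% to 0.207% at day 3, and 0.189% to 0.254% at day 5. Between days 1 and 5, 8 of the 10 passed, 4 higher and 4 lower, as did 60.8% of all miRNAs tested. In the deposited normalized values 4 passed, where 144 of 242 miRNAs tested passed and miR-126-3p and miR-144 had no comparison. The erythroid miR-451 fell by 7.24 (adjusted p = 8.78e-10 by limma) and was still detected on 3 arrays at day 5, and miR-144, its partner from the same transcript, was detected on 2 arrays at day 1 and on none later. The lymphoid miR-150 and the endothelial and megakaryocytic miR-126-3p were detected on all 4 day 1 arrays and on none later. Between days 1 and 5 miR-150 did not pass (adjusted p = 0.0670 by limma). The stromal miR-199a-3p and miR-199a-5p were higher at day 5 than at day 1 and were detected on all day 1 and day 5 arrays. The stromal miR-143 and miR-214 also passed with a higher level at day 5, where each was detected on 3 arrays. The stromal miR-145 did not pass (log2 difference -0.13, adjusted p = 0.918 by limma) and was detected on 1 array of day 1 and on none later. The part of these cells in the changes of miR-221 and miR-222 was not tested.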

How the data were processed

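RNA of 12 cultures was measured on single-color Agilent miRNA arrays. Scanner files were deposited by the authors from Feature Extraction 9.5.3.1, and their values are background-subtracted intensity on a linear scale, not normalized between arrays. From them came the total signal per miRNA, its detection mark, and the signals of probes and spots. A table of log2 values, quantile normalized by the authors in GeneSpring and deposited, served as an alternative.

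Quantile normalization was run on the total signals of all miRNAs with detection on 1 or more arrays. Values were raised to a floor of 1 (9.28% of values), and converted to log2. limma 3.58.1 in R 4.3.3 fitted 1 mean per day, with Benjamini-Hochberg adjustment over 334 miRNAs within each contrast. Within-array differences were compared by exact permutation in Python 3.11.15 with scipy 1.17.1. The fit was tested on simulated data with changes larger than those of the members and without the normalization step. Changes as small as theirs were not covered. No array duplicated another. Replicates were labelled as biological replicates. Probe places are those of mm9 and gene places those of GRCm38.p6, with no conversion between them. The named miRNAs were both members, those sharing their seed, the 5 closest to each in pattern, and the p27, Kit, X chromosome, and marker lists. Members and lists were chosen with earlier results of these data known. Alternatives covered the scaling, filter, floor, background correction, processed spot signal, the authors' values, the threshold, an intensity trend, analysis of variance, the replicate number as a block, single probes, and each array left out.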

Additional observations from a re-analysis of the deposited data

Results flagged for a closer look

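Dixon's test for a sample far from the other 3 of its day was applied to 9 groups of 4 arrays, and 2 were past its 95% critical value, while chance gives about 1 in 20. miR-222 on day 1 replicate 4 stood at 12.77, with a gap to the nearest array of 0.943 of the day's range. Before normalization its signal of 6073 lay inside the range of the other day 1 arrays. miR-221 on day 5 replicate 2 stood at 14.45, where the other 3 arrays shared the value 14.32 given by an equal rank. Before normalization its signal, 21064, was the lowest of day 5.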

How the results depend on the processing

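miR-221 was higher at day 5 than at day 1 in all 28 alternatives (0.27 to 0.61, adjusted p 0.000243 to 0.0659 by limma). It missed the threshold with the 75th percentile of miRNAs detected on all arrays (0.27) and without normalization (0.28). Its day 3 minus day 1 difference kept its sign in 26 of 27 alternatives. It missed the threshold with the 75th percentile of all miRNAs (0.49, adjusted p = 0.0122), the median (0.45, 0.0104), and the processed spot signal (0.30, 0.0255), and was -0.31 without normalization. With 1 array left out it was 0.32 to 0.43. Day 5 minus day 3 was -0.15 with the percentile of miRNAs detected on all arrays and 0.58 without normalization, where it passed (adjusted p = 0.00318). The F test of miR-221 missed the threshold with the processed spot signal (adjusted p = 0.0126).

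For miR-222, day 3 minus day 1 was -0.46 without normalization and 0.26 to 0.46 with 1 array left out. Day 5 minus day 1 was -0.038 over miRNAs detected on all 12 arrays, -0.16 with their 75th percentile, -0.15 without normalization, and -0.012 to 0.19 with 1 array left out. Day 5 minus day 3 was 0.31 without normalization. The F test passed without day 1 replicate 4 (adjusted p = 0.00432).

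The within-array difference fell from day 1 to day 5 in all 29 alternatives and from day 3 to day 5 in all 28. These alternatives are not independent, so the counts are not separate support. Scaling each array by 1 factor cannot change a within-array difference, which was -0.43 from day 1 to day 5 under each such scaling. Other alternatives left the main values of both miRNAs as they were. With 1 array left out these changes were -0.42 to -0.29 and -0.35 to -0.25 with adjusted p up to 0.0857, since 3 arrays against 4 cannot give an exact p under 0.0571. From day 1 to day 3 it was 0.015 with the processed spot signal and -0.10 to 0.030 with 1 array left out.

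Calls numbered 175, 203, and 85 from day 1 to 3, 1 to 5, and 3 to 5. They were 80 and 109 for the first 2 among miRNAs detected on all 12 arrays, where 148 were tested, 115 for the first in the deposited values, where 220 were tested, and 40 for the last with the 75th percentile of all miRNAs, for which the cause was not tested. With the replicate number as a block they were 176, 200, and 74, with adjusted p of 0.00247 for miR-221 from day 1 to day 5, and no call of a member changed. Same-numbered arrays of different days had deviations that correlated by over 0.1 in 11 of 12 pairs (range over all pairs 0.087 to 0.784, median 0.396), and 9 of 12 arrays correlated best with their own number, which is a hint from the data and not from the labels. The analysis of variance gives 1 p over 3 days and was applied to the F tests alone. All values rest on 4 arrays per day.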
